A study of Homo sapiens with 6 samples.

Results

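The Notch genes described here are 10 of the 51537 gene rows of the deposited expression table, taken by gene name: the receptors NOTCH1, NOTCH2 and NOTCH3, the ligands JAG1, JAG2 and DLL1, and the target genes HES1, HES4, HEY1 and NRARP. RNA came from H3122, a human lung adenocarcinoma line known for an EML4-ALK fusion. The resistant group was 3 libraries of H3122 cells made resistant to crizotinib, a drug against the kinases ALK and MET, by raising the drug stepwise over the range 0.1 to 10 µM. The other group was 3 libraries of control H3122 cells. Both groups come from the same line, and no engineered allele is named for either. The labels describe a single resistant derivative and do not say whether it was a clone, whether drug was present at harvest, or whether libraries of a group were grown as separate cultures. The p-values therefore rest on the spread among these 6 libraries, which may be technical.

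Notch receptors are membrane proteins that are activated by ligands on a neighbouring cell. Ligand pulling exposes the receptor to the ADAM10 sheddase and then to gamma-secretase, which frees an intracellular domain that joins the DNA-binding protein RBPJ and the Mastermind coactivators on target genes. HES and HEY targets encode transcriptional repressors, and in the airway the pathway is known for steering progenitor cells between secretory and ciliated fates.

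Expression was deposited as TPM, a unit that divides reads by gene length and has the same total in each library. Depth was estimated at 29856927 to 36695580 reads a library, with 15485 to 16272 genes at 1 TPM or more. Of 11 markers of lung adenocarcinoma, 3 were under 1 TPM in all 6 libraries. The lineage factor NKX2-1 was at 0.437 to 0.751 TPM in resistant and 0 to 0.187 TPM in control libraries, and SFTA3 was listed at 0 in all 6, whereas the epithelial keratins KRT7, KRT8, KRT18 and KRT19 were all at 1895 TPM or more in every library. The keratins of the labelled epithelial cell type were thus abundant, and its lung markers NKX2-1, SFTPB and SFTA3 near 0. The lung marker NAPSA was at 1.10 to 1.45 TPM in resistant and 1.38 to 2.05 TPM in control libraries. EPCAM was at 245 to 251 TPM in resistant and 295 to 345 TPM in control libraries. CDH1 was at 227 to 240 TPM in resistant and 177 to 188 TPM in control libraries. MUC1 was at 36.5 to 37.6 TPM in resistant and 54.1 to 62.4 TPM in control libraries. The summed level of 10 fibroblast markers was 13.7 to 15.1 TPM in resistant and 3.96 to 4.56 TPM in control libraries, almost all of it COL1A1, and DCN and LUM were listed at 0. The sum over 9 endothelial markers was 13.3 to 15.6 TPM in resistant and 11.2 to 12.6 TPM in control libraries, with KDR and ERG listed at 0. Within that sum, ESAM was at 7.34 to 8.69 TPM in resistant and 2.91 to 3.60 TPM in control libraries, PECAM1 at 2.52 to 3.32 TPM in resistant and 0.777 to 1.10 TPM in control libraries, and CDH5 at 3.19 to 3.80 TPM in resistant and 6.81 to 7.64 TPM in control libraries. Over 10 immune markers the sum was 6.64 to 7.92 TPM in resistant and 6.13 to 6.70 TPM in control libraries, with LYZ and MS4A1 listed at 0. The part of these marker shifts in the results below was not tested.

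The 9 Notch genes that could be tested differed by less than 2-fold, in both directions. JAG1, JAG2, NOTCH3 and HES4 rose in resistant cells, NOTCH2 and NRARP fell, and NOTCH1, HES1 and HEY1 did not pass the test. DLL1 was too low to be tested. Of the 9 members tested, 4 were called higher and 2 lower by limma with Benjamini-Hochberg adjustment at 0.05, where 24.0% of all 16077 tested genes were called higher and 24.7% lower. The median log2 change was 0.33 over the 9 members and -0.0044 over all tested genes. The median size of the change, whatever its sign, was 0.44 over the members and 0.27 over all tested genes. The members were chosen with earlier results of these data known, so these counts and medians are description only. Each log2 change is the resistant mean minus the control mean of log2(TPM + 1), with its standard error, and levels are TPM as mean ± SD with n = 3 libraries per group. In bulk RNA of this kind, fewer cells with a transcript and less of it per cell cannot be told apart.

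**Figure D1:**
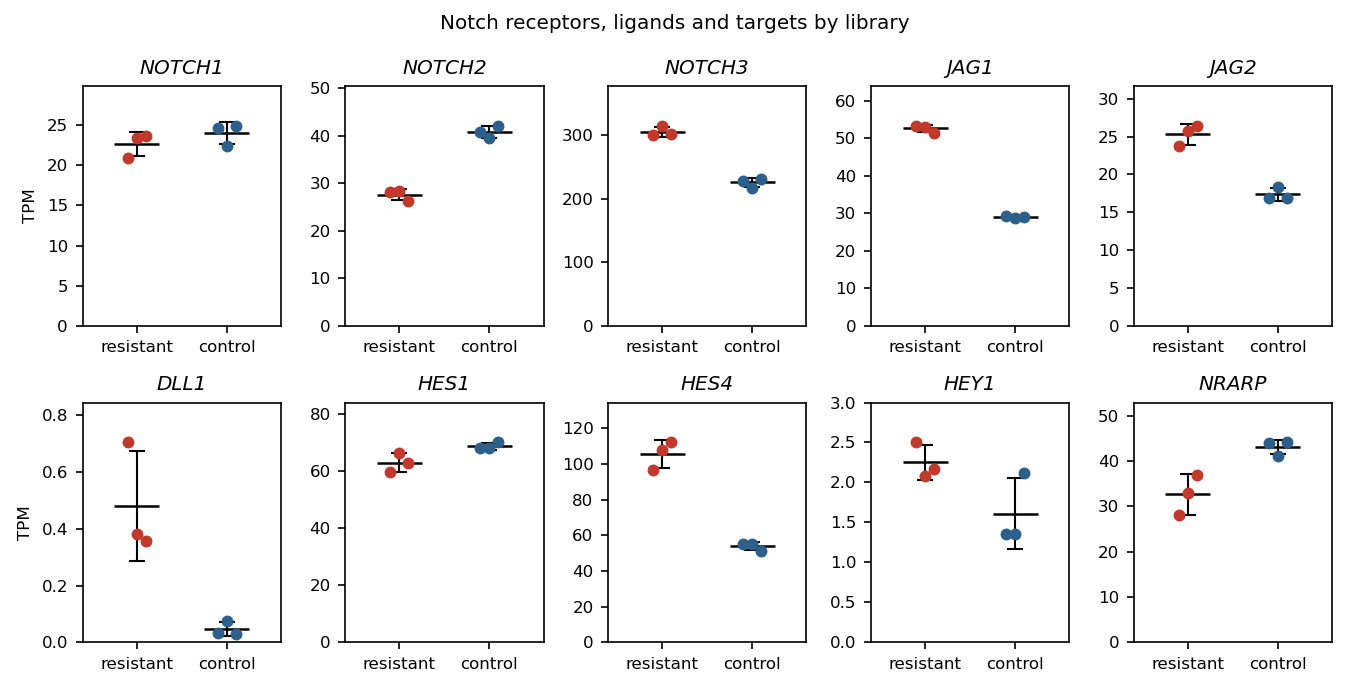
TPM of the 10 Notch genes in each library (y axis from 0, one panel per gene). Points are the 3 resistant and 3 control libraries, bars the mean ± SD; the resistant points of JAG1, JAG2, NOTCH3, HES4 and DLL1 lie above all control points, and those of NOTCH2, NRARP and HES1 below.

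Promoter sequence is shown for the target genes HES1 and HES4, since both hold the short RBPJ-binding word GTGGGAA, and HES4 rose while HES1 did not pass the test. The sequences are from RefSeq on GRCh38.p14, run 5′ to 3′ on the strand of the gene, and cover 250 bases before to 50 bases after the annotated start. HES1 lies on the plus strand (chr3:194135898-194136197) and HES4 on the minus strand (chr1:1000048-1000347). Capitals mark GTGGGAA.
HES1: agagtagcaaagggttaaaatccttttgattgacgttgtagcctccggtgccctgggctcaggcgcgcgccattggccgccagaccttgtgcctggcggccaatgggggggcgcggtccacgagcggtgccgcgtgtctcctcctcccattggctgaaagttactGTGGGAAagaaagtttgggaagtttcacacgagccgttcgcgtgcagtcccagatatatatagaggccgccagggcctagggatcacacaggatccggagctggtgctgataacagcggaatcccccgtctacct
HES4: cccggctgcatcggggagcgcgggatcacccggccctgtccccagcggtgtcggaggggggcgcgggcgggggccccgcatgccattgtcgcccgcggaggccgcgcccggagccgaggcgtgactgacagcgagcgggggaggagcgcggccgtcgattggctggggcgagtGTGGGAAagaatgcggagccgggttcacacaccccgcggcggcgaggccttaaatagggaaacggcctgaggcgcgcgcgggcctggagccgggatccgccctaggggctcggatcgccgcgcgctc

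The word GTGGGAA spans positions -85 to -79 of HES1 and -77 to -71 of HES4, counted from the RefSeq start. The GENCODE start of HES4, at 1000172 on the minus strand, lies upstream of the RefSeq start, within GTGGGAA. The HES4 positions thus depend on the annotation used. Its 12-base surroundings tGTGGGAAagaa were the longest run of letters shared by both windows. On either strand, GTGGGAA was found in 6.25% of the 35116 RefSeq promoters of this length and in 2 of the 8 members with a promoter in the table (HES1, HES4, NRARP, NOTCH1, NOTCH2, NOTCH3, JAG1 and JAG2). The longer word CGTGGGAA was in 0.826% of promoters, and the E box CACGTG in 7.26%. Neither was in any of the 8 windows. The N box CACNAG, a word that HES repressors bind, was in 38.0% of promoters and in 5 of the 8 windows, with 4 copies in HES1 and none in HES4. None of the HES1 copies overlapped GTGGGAA. These are matches of letters and say nothing about binding in these cells.

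Among receptors, NOTCH3 was by far the most abundant and rose, while NOTCH2 fell. NOTCH3 (ENSG00000074181, chromosome 19, 15159038 to 15200981) was at 300, 314 and 301 TPM in resistant libraries, against 228, 217 and 231 TPM in control libraries. The groups did not overlap. The log2 change was 0.44 ± 0.04 (limma adjusted p = 0.000145). NOTCH3 mRNA stood above 97.5% of tested genes in resistant and 96.4% in control cells.

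NOTCH2 (ENSG00000134250, chromosome 1, 119911553 to 120069626), a broadly expressed receptor, was at 28.1, 28.4 and 26.3 TPM in resistant libraries, against 40.8, 39.6 and 42.1 TPM in control libraries. Every resistant library was below every control library, and the log2 change was -0.55 ± 0.05 (limma adjusted p = 0.000120). The first exons of NOTCH2 have near-identical copies in the NOTCH2NL genes. The sources used here do not say how reads from such copies were assigned, so the NOTCH2 level is uncertain to that extent. The deposited rows named NOTCH2NL were at 0.554 to 0.728 TPM (ENSG00000264343) and at 0 to 0.0160 TPM (ENSG00000213240).

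NOTCH1 (ENSG00000148400, chromosome 9, 136494433 to 136545786), the receptor known for activating mutations in T-cell leukaemia, was at 20.9, 23.4 and 23.7 TPM in resistant libraries, against 24.7, 22.4 and 24.9 TPM in control libraries. These ranges overlapped, and the log2 change of -0.08 ± 0.07 did not pass the test (limma adjusted p = 0.383). An antisense RNA within NOTCH1, AL592301.1, was at most 1.40 TPM in any library.

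The make-up of receptor mRNA within a library differed between groups. The 3 receptors summed to 349, 366 and 351 TPM in resistant libraries and 293, 279 and 298 TPM in control libraries. NOTCH3 made up 86.0%, 85.8% and 85.7% of that sum in resistant libraries, against 77.7%, 77.7% and 77.5% in control libraries. The share of NOTCH2 was 8.04%, 7.77% and 7.50% in resistant libraries, against 13.9%, 14.2% and 14.1% in control libraries. The TPM ratio of NOTCH3 to NOTCH2 was 11.1 ± 0.366 in resistant and 5.51 ± 0.0649 in control libraries (SD, n = 3 each). In all, 4 ratios of a pair of members were compared, NOTCH3 to NOTCH2, NOTCH3 to NOTCH1, JAG1 to JAG2 and HES4 to HES1. The groups did not overlap in any of the 4, and each gave p = 0.100 in a two-sided exact permutation test, adjusted p = 0.100 over the 4 ratios. With 3 libraries a group that is the smallest p this test can give, so it cannot pass 0.05.

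**Figure D2:**
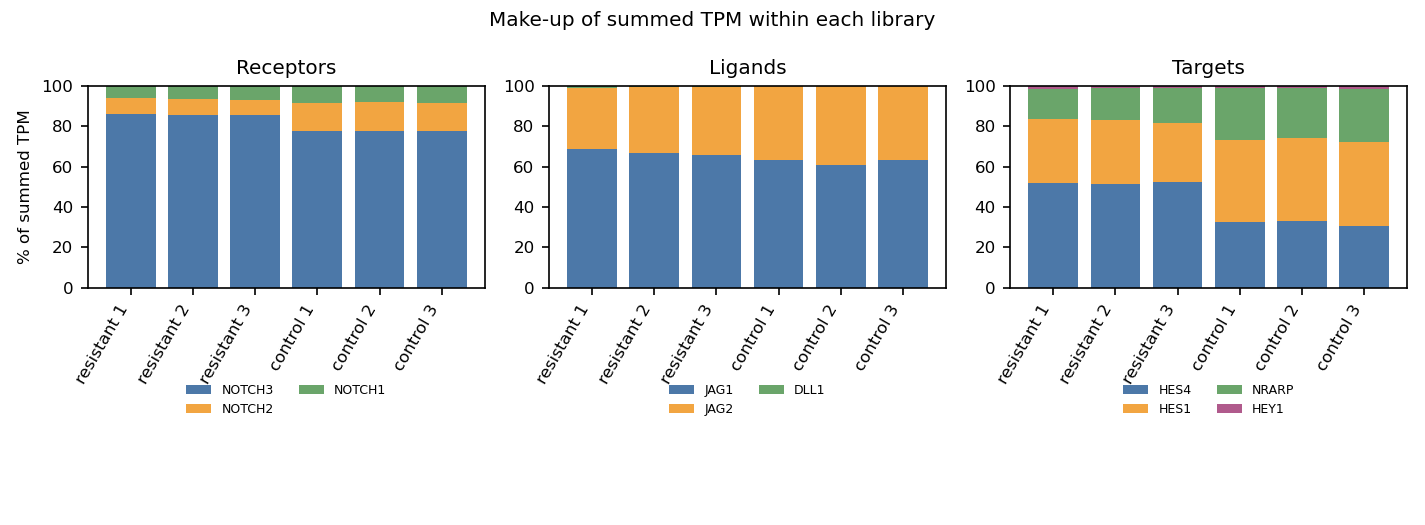
Share (%) of each member in the summed TPM of receptors, ligands and targets, one stacked bar per library, resistant libraries left of control libraries. NOTCH3 makes up 85.7% to 86.0% of receptor TPM in resistant and 77.5% to 77.7% in control libraries, HES4 51.5% to 52.3% and 30.6% to 33.1% of target TPM; DLL1 and HEY1 are slivers at the top or too thin to see.

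Both ligands that could be tested rose. JAG1 (ENSG00000101384, chromosome 20, 10637684 to 10673999), the Jagged ligand mutated in Alagille syndrome, was at 53.3, 53.1 and 51.5 TPM in resistant libraries, against 29.2, 28.7 and 29.0 TPM in control libraries. The groups lay far apart relative to their spread, and the log2 change was 0.84 ± 0.04 (limma adjusted p = 8.15e-06). JAG2 (ENSG00000184916, chromosome 14, 105140981 to 105168824), the other Jagged ligand, was at 23.7, 25.8 and 26.4 TPM in resistant libraries, against 16.9, 18.3 and 16.9 TPM in control libraries. The groups did not overlap, with a log2 change of 0.52 ± 0.06 (limma adjusted p = 0.000444). The TPM ratio of JAG1 to JAG2 was 2.09 ± 0.153 in resistant and 1.67 ± 0.0890 in control libraries (SD, n = 3 each). Genes that overlap these 2 ligands in GENCODE were near 0: AL050403.2, antisense to JAG1, was at most 0.172 TPM, and AL512356.1, on the strand of JAG2, was listed at 0 in all 6 libraries.

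DLL1 (ENSG00000198719, chromosome 6, 170282206 to 170306565), a Delta-like ligand, was near the floor. It was at 0.704, 0.382 and 0.358 TPM in resistant libraries, against 0.0347, 0.0744 and 0.0300 TPM in control libraries. The groups did not overlap. These values rest on an estimated 43 reads over the 3 resistant libraries and 4 reads over the 3 control libraries, rounded to whole reads, a ratio of 11.0 after scaling to library totals (exact 95% interval 3.99 to 42.2, counting error only). DLL1 was below the filter of 1 TPM in at least 3 libraries and was not tested in the analysis described here. Without the filter it passed limma (adjusted p = 0.0373). FAM120B overlaps DLL1 on the opposite strand and was at 12.0 to 12.4 TPM in resistant and 12.6 to 14.2 TPM in control libraries. AL078605.1, a lincRNA that overlaps DLL1 on the same strand, was listed at 0 in all 3 resistant libraries and at 0.220, 0 and 0.190 TPM in control libraries, above DLL1 in control replicates 1 and 3. Whether the authors' counting used strand is not given in the sources used here, so reads of these genes could be shared, and their part in the DLL1 values was not tested.

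The target genes did not move together. HES4 (ENSG00000188290, chromosome 1, 998962 to 1000172), a HES-family repressor, was at 96.6, 108 and 112 TPM in resistant libraries, against 55.2, 54.9 and 51.2 TPM in control libraries. Every resistant library was above every control library, and the log2 change was 0.96 ± 0.06 (limma adjusted p = 2.95e-05). The next gene along the chromosome, ISG15, an interferon-induced ubiquitin-like protein, runs in the opposite direction with 965 bp between the genes. ISG15 was at 297 ± 15.6 TPM in resistant and 70.7 ± 0.975 TPM in control libraries (SD, n = 3 each; log2 change 2.06 ± 0.05, limma adjusted p = 5.73e-07). The gene bodies do not overlap in GENCODE, and the part of ISG15 in the HES4 values was not tested.

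HES1 (ENSG00000114315, chromosome 3, 194136145 to 194138732), the most studied Notch target and a repressor that also acts on its own promoter, was at 59.8, 66.4 and 62.8 TPM in resistant libraries, against 68.0, 68.2 and 70.1 TPM in control libraries. All 3 resistant values were below the control values, by a small margin. The log2 change was -0.13 ± 0.05 and did not pass (limma adjusted p = 0.0681). It passed without resistant replicate 2 (log2 -0.16, adjusted p = 0.0356) and when libraries were rescaled without mitochondrial genes and the most abundant 1% of genes (log2 -0.12, adjusted p = 0.0488). The TPM ratio of HES4 to HES1 was 1.67 ± 0.0914 in resistant and 0.782 ± 0.0451 in control libraries (SD, n = 3 each), a log2 difference of 1.10, so that HES4 was above HES1 in each resistant library and below it in each control library.

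NRARP (ENSG00000198435, chromosome 9, 137300482 to 137302251) encodes an ankyrin repeat protein that is induced by Notch and dampens it. It was at 28.1, 32.9 and 37.0 TPM in resistant libraries, against 44.0, 41.2 and 44.1 TPM in control libraries. The resistant libraries were all lower but more scattered (coefficient of variation 13.7% in resistant and 3.91% in control libraries). The log2 change was -0.40 ± 0.09 (limma adjusted p = 0.0104).

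HEY1 (ENSG00000164683, chromosome 8, 79764010 to 79767863), a HEY-family repressor, was low, at 2.50, 2.08 and 2.17 TPM in resistant libraries, against 1.36, 1.35 and 2.12 TPM in control libraries. Control replicate 3 fell within the resistant range. The log2 change was 0.33 ± 0.16 and did not pass (limma adjusted p = 0.124), but it passed without control replicate 3 (log2 0.46, adjusted p = 0.0498). The values rest on an estimated 61 to 76 reads per resistant library and 37 to 72 reads per control library.

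The 4 target genes summed to 187, 209 and 214 TPM in resistant libraries and 169, 166 and 168 TPM in control libraries. HES4 made up 51.7%, 51.5% and 52.3% of that sum in resistant libraries, against 32.7%, 33.1% and 30.6% in control libraries. NRARP made up 15.0%, 15.7% and 17.3% in resistant libraries, against 26.1%, 24.8% and 26.3% in control libraries.

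Ordered by TPM, resistant cells had NOTCH3, HES4, HES1, JAG1, NRARP, NOTCH2, JAG2, NOTCH1, HEY1 and DLL1. Control cells had NOTCH3, HES1, HES4, NRARP, NOTCH2, JAG1, NOTCH1, JAG2, HEY1 and DLL1. Neighbours whose ranges over libraries overlapped were NRARP and NOTCH2 in both groups, and in resistant cells also NOTCH2 with JAG2 and JAG2 with NOTCH1. JAG1 thus stood above NOTCH2 in every resistant library and below it in every control library. Groups did not overlap for 7 of the 9 tested members, 4 higher and 3 lower in resistant libraries. By that rule 57.9% of all tested genes did not overlap, 29.2% higher and 28.7% lower.

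Genes around a member on the chromosome were read as context, with up to 10 tested protein-coding genes on each side. Over all tested genes, 24.0% were called higher and 24.7% lower, the shares to set beside the counts below. These shares include non-coding genes, whereas the neighbours do not. Medians of a chromosome are also over its tested protein-coding genes. For NOTCH2 the median log2 change of 20 neighbours was -0.46, with 12 called lower and 1 higher, beside -0.55 for NOTCH2 itself. These neighbours lie on both sides of the centromere. Around HES4, 13 of 15 neighbours were called higher by limma and the rest were not called, with a median of 0.45 against 0.96 for HES4. Both genes lie on chromosome 1, where the median over 1296 other tested protein-coding genes was -0.06. Around JAG1, 10 of 20 neighbours were called higher and 5 lower, and their median was 0.22 beside 0.84 for the gene and 0.15 for chromosome 20. Around JAG2, 5 of 20 were called higher and 5 lower, with a median of 0.03 beside 0.52 for the gene. Of 20 neighbours of NOTCH3, 6 were called higher and 2 lower. NRARP, with a log2 change of -0.40, sat among 19 genes with a median of 0.17, of which 8 were called higher and 1 lower. NOTCH1, 754695 bp away on the same arm, had 20 neighbours at a median of 0.18, with 10 called higher and 2 lower. Around DLL1 the median of 14 neighbours was -0.28, with 1 called higher and 7 lower. Around HEY1 that of 20 neighbours was -0.25, with 2 called higher and 9 lower. HES1, at -0.13, had 20 neighbours with a median of -0.02, of which 4 were called higher and 4 lower. The part of these neighbourhoods in the members' changes was not tested.

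**Figure D3:**
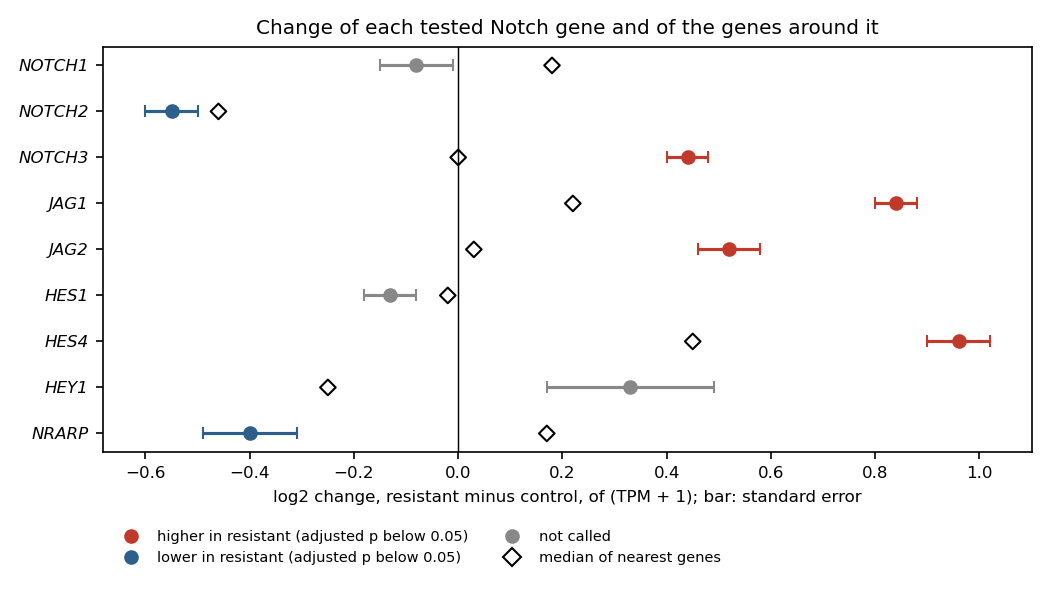
Log2 change of (TPM + 1), resistant minus control, of the 9 tested Notch genes (filled points, bars are standard errors, colour by call) and median log2 change of the nearest tested protein-coding genes (open diamonds). NOTCH2 at -0.55 lies near its neighbours at -0.46, while NRARP at -0.40 lies on the other side of 0 from its neighbours at 0.17.

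Other genes of the pathway were taken from 10 role lists, chosen with earlier results of these data known. Of 107 genes found, 84 were tested, and 18 were called higher and 31 lower by limma (21.4% and 36.9%, where 24.0% and 24.7% of all tested genes were called higher and lower). Their median log2 change was -0.07. Shares over all tested genes, here and for the lists below, count genes down to the filter of 1 TPM. With a filter of 5 TPM a larger share of all genes was called, and most of the 84 pathway genes passed that filter. The lists were not compared with genes of similar level, so the part of expression level in their shares was not tested. The other receptor and Delta-like ligand genes were low. NOTCH4 was at 0.132 ± 0.0541 TPM in resistant and 0.163 ± 0.0716 TPM in control libraries, and DLL4 at 0.442 ± 0.0876 TPM in resistant and 0.821 ± 0.0769 TPM in control libraries (SD, n = 3 each). Neither was tested. DLL3, a ligand known for inhibiting Notch within the cell, was at 2.34 ± 0.483 TPM in resistant and 2.21 ± 0.254 TPM in control libraries and did not pass (limma adjusted p = 0.814). DLK2, a non-canonical ligand, rose to 8.31 ± 0.206 TPM in resistant libraries, against 5.26 ± 0.666 TPM in control libraries (log2 0.58). DNER, another non-canonical ligand, named after its values were seen, was at 1.54, 1.23 and 1.47 TPM in resistant libraries, against 0.308, 0.150 and 0.121 TPM in control libraries. It passed the filter only through the resistant libraries, and its log2 change was 1.02 with a pseudocount of 1 and 2.42 with 0.1.

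Genes that process the receptor went both ways. Of 9 tested sheddase and gamma-secretase genes, 2 rose and 5 fell (77.8% called, where 48.6% of all tested genes, whatever their level, were called). ADAM10, the sheddase that cuts ligand-bound Notch, fell to 21.6, 17.6 and 18.3 TPM in resistant libraries, against 37.7, 48.2 and 41.3 TPM in control libraries. That was a log2 change of -1.10 ± 0.11 (limma adjusted p = 0.000158), larger in size than that of any tested member. ADAM17, the other sheddase of the list, named after its values were seen, rose. It was at 51.6 ± 1.88 TPM in resistant and 39.7 ± 2.43 TPM in control libraries (log2 0.37, limma adjusted p = 0.00141). PSEN2, a catalytic subunit of gamma-secretase, fell (log2 -0.47), as did FURIN (-0.45), a protease that matures the receptor, while PSENEN (0.41), another gamma-secretase subunit, rose. Of 9 tested genes of ligand uptake, 1 rose and 3 fell (44.4% called). EPN1, an epsin of ligand endocytosis, fell (log2 -0.33), as did NEURL1B (-0.22) and NEURL4 (-0.21), while the dynamin DNM1 rose (0.44). The NEURL4 call did not hold without control replicate 2 (adjusted p = 0.0758), control replicate 3 (0.0754), resistant replicate 1 (0.0600) or resistant replicate 3 (0.0515).

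Among 9 tested genes that add sugars to the receptor, 3 rose and 2 fell (55.6% called, where 48.6% of all tested genes were called). LFNG, the fringe glycosyltransferase that alters how receptors answer Delta and Jagged ligands, fell to 27.5, 30.9 and 30.9 TPM in resistant libraries, against 65.8, 68.8 and 65.8 TPM in control libraries. Its log2 change was -1.14 ± 0.06 (limma adjusted p = 8.68e-06). POFUT1, which adds the fucose that fringe extends, rose to 65.0 ± 1.21 TPM in resistant libraries, against 47.6 ± 2.69 TPM in control libraries (SD, n = 3 each). XXYLT1, a xylosyltransferase, rose as well (log2 0.32). B4GALT1 rose by 0.12 on the log2 scale, a call that was lost in 8 of the 13 alternative settings, with adjusted p up to 0.112.

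Nuclear cofactors were mostly called lower or not called. Of 8 tested activators, 1 rose and 4 fell (62.5% called). MAML1, a Mastermind coactivator, fell (log2 -0.34), as did the acetyltransferases CREBBP (-0.43) and EP300 (-0.29), while the acetyltransferase KAT2A rose (0.44). RBPJ, named after its values were seen, was at 11.5 ± 0.974 TPM in resistant and 12.6 ± 1.05 TPM in control libraries and did not pass (limma adjusted p = 0.293). Of 13 tested corepressors, 1 rose and 9 fell (76.9% called, where 48.6% of all tested genes were called). TLE2, a Groucho-type corepressor, fell to 23.1 ± 0.362 TPM in resistant libraries, against 52.5 ± 2.06 TPM in control libraries (SD, n = 3 each; log2 -1.15), and its relative TLE1 rose to 53.7 ± 2.10 TPM in resistant libraries, against 35.2 ± 0.276 TPM in control libraries (log2 0.60). KDM5A, a histone demethylase, fell (log2 -0.49), and so did L3MBTL2 (-0.39). Of 15 tested genes of turnover and trafficking, 1 rose and 4 fell, a smaller share (33.3% called) than over all tested genes. ITCH, a ubiquitin ligase, rose (log2 0.46), and CDK8 (-0.65), a kinase that marks the Notch intracellular domain for decay, WWP2 (-0.37) and CBL (-0.27), both ubiquitin ligases, were among those that fell.

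The list of the wider HES and HEY family also holds the related repressors BHLHE40 and BHLHE41. Of its 7 tested genes, 4 rose and 2 fell (85.7% called, where 48.6% of all tested genes were called). Among the calls, that of HES2 (named after its values were seen; log2 0.27, limma adjusted p = 0.0224), was lost in 6 of the 13 alternative settings, with adjusted p from 0.0507 to 0.0765 in those settings and 0.0548 with the replicate block. HES6 fell to 12.8, 11.4 and 11.9 TPM in resistant libraries, against 24.7, 24.3 and 25.9 TPM in control libraries (limma adjusted p = 2.24e-05). In mouse, HES6 is known as an antagonist of HES1. HES7, a segmentation clock gene, rose to 21.3 ± 1.18 TPM in resistant libraries, against 14.1 ± 1.64 TPM in control libraries (SD, n = 3 each). HEYL rose to 2.88 ± 0.366 TPM in resistant libraries, against 1.73 ± 0.106 TPM in control libraries (log2 0.50, limma adjusted p = 0.0118). HES5 was at 0.950 ± 0.408 TPM in resistant and 1.31 ± 0.445 TPM in control libraries and did not pass (limma adjusted p = 0.394). HEY2, at 0.366 ± 0.170 TPM in resistant and 0.370 ± 0.297 TPM in control libraries, was not tested. The related repressors BHLHE40 and BHLHE41, known from the circadian clock, moved apart, at log2 0.51 and -1.10.

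Of 10 further genes reported as Notch targets in other systems, 3 rose, 2 fell and 5 did not pass. That is 5 of 10 called, near the 48.6% of all tested genes. ID1, an inhibitor of helix-loop-helix factors, rose to 246 ± 20.4 TPM in resistant libraries, against 51.4 ± 2.52 TPM in control libraries, and CDKN1A, a cell cycle inhibitor, rose to 90.1 ± 5.35 TPM in resistant libraries, against 24.0 ± 1.32 TPM in control libraries (SD, n = 3 each; log2 2.24 and 1.86). NFKB2 rose to 65.6 ± 1.67 TPM in resistant libraries, against 32.3 ± 0.283 TPM in control libraries, and GATA3 fell (log2 -0.84). These genes answer to many other pathways. Of 10 proneural and neuroendocrine genes, which HES repressors keep low, 9 were not tested. NEUROD1, INSM1, ATOH1, NEUROG1 and NEUROG3 were listed at 0 in all 6 libraries, and POU2F3 was at 1.26 TPM in resistant and 1.27 TPM in control libraries.

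**Figure D4:**
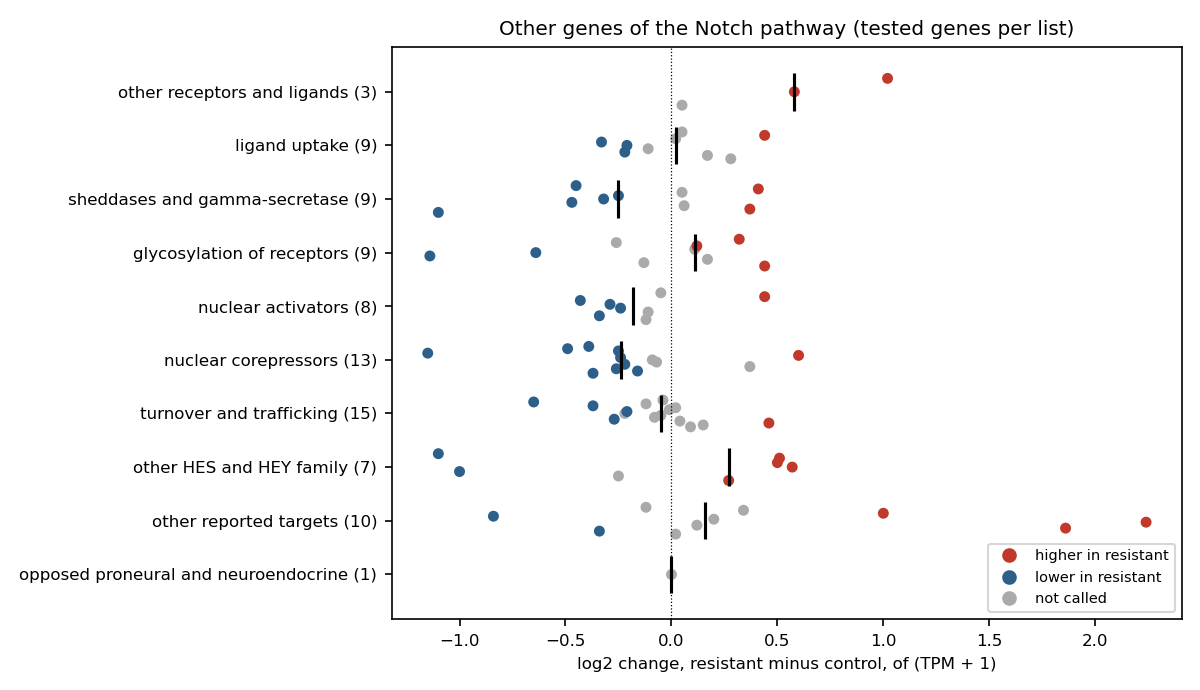
Log2 change of (TPM + 1), resistant minus control, of 84 tested genes in 10 role lists of the Notch pathway, with the number tested in brackets. Each point is a gene, red if called higher, blue if called lower and grey if not called, and the black line is the list's median; 9 of 13 corepressors are called lower, with TLE2 at -1.15.

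HES4 had the largest absolute change of the members called. The 5 tested genes whose profile over the 6 libraries was nearest to that of HES4, by Euclidean distance of log2(TPM + 1) centred on each gene's mean, were ZNF568 (distance 0.0998), ZNF573 (0.109), ZNF419 (0.117), MSLN (0.121) and RP11-219G10.3 (0.124). ZNF568, ZNF573 and ZNF419 are on chromosome 19, and none of these 5 is on chromosome 1, where HES4 lies. ZNF568 and ZNF573 were below 2 TPM in all libraries. ZNF568 was at 1.18 to 1.32 TPM in resistant and 0.0715 to 0.177 TPM in control libraries. ZNF573 was at 1.66 to 1.98 TPM in resistant and 0.422 to 0.503 TPM in control libraries. Both were thus in the tested set only through the resistant libraries. At such levels the pseudocount of 1 shrinks the log2 change, to 0.98 for ZNF568 and 0.95 for ZNF573, beside 0.96 for HES4. The nearness of these 2 genes to HES4 therefore depends on the pseudocount.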

How the data were processed

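Bead-captured mRNA of 6 libraries was sequenced with a strand-specific KAPA kit, per the labels' protocols. The authors deposited 1 table of TPM for 51537 genes, each column with the same total. HISAT2 is named in the submitters' processing notes; its version, the counter, gene lengths, build, annotation and strand setting were stated in none of the sources used. TPM keeps no depth, so reads were estimated by multiplying TPM by the GENCODE 29 union exon length and dividing by each library's smallest step. Between 67.2% and 67.9% of values above 0 then lay within 0.01 of a whole read; those of DLL1 did not. Gene coordinates are GENCODE 29 on GRCh38, 1-based.

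The 16077 genes that reached 1 TPM in 3 or more libraries were fitted with limma 3.58.1 in R 4.3.3 (statmod 1.5.0) on log2(TPM + 1), with a trend and robust moderation, two-sided, Benjamini-Hochberg over all tested genes, called at 0.05. No set test was run. Across genes, Pearson's r ran from 0.9864 to 0.9888 for pairs of the same group, and from 0.957 to 0.9597 for pairs of different groups.

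The members and lists were chosen with earlier results of these data known. All 10 members are named. From each other list, up to 4 called genes are named by size of change, if the group where they are higher averages 5 TPM or more. A list with fewer than 2 such genes gives its most abundant gene. NOTCH4, DLL3, DLL4, HES5, HEY2 and HEYL are always named, as are the 5 nearest profiles to the called member with the largest change. Other named genes are neighbours, overlapping genes, markers or were chosen after their values were seen. The alternatives were another pseudocount (0.1), no filter, a 5 TPM filter, 2 other scalings, a replicate block, plain moderation and leaving out each library.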

Additional observations from a re-analysis of the deposited data

How the results depend on the processing

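The counts of members called, 4 higher and 2 lower, stayed at 4 to 5 and 2 to 3 in all 13 alternative settings, and leaving out each library gave the same ranges. JAG1, JAG2, NOTCH3, HES4, NOTCH2 and NRARP were called, with their direction, in each setting, and their highest adjusted p was 0.038 (NRARP, with log2 from -0.49 to -0.30). NOTCH1 was called in none (limma adjusted p 0.214 to 0.794). The additional calls were HES1, HEY1 and, without the filter, DLL1. The difference of the mean log2 of DLL1 was 0.49 with a pseudocount of 1 and 1.95 with 0.1. Of the other pathway genes, 8 lost and 11 gained a call in at least 1 setting, and the counts were 16 to 20 higher and 25 to 32 lower. Over all genes, 3017 to 4073 were called higher and 3114 to 4327 lower.

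Same-numbered libraries did not deviate together (r of deviations -0.058, -0.002 and -0.016), so no pairing by number was visible. Such correlations cannot show whether libraries were prepared in pairs, which the labels do not say. With the replicate block, 4 members were called higher and 2 lower, 17 and 27 other pathway genes, and 3433 and 3423 of all genes. Depth limits DLL1 and HEY1, and NOTCH4, DLL4 and HEY2 fell below the 1 TPM filter. With the 5 TPM filter HEY1 was left out too.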
